A study of Zea mays with 4 samples.

Results

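The sliding clamp of DNA replication and the ribonucleotide reductase that makes its building blocks are described here through 5 maize genes. They were taken by name, as the GeneIDs whose NCBI symbol or synonym is PCNA, pcna2, RNRL1, RNRS1 or RNRS3, and they are 5 of the 48174 genes in the count files. All 5 names were found, each at 1 GeneID. The rule uses names alone and no measured value, but the genes were chosen with earlier results of these data known.

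The RNA came from root tips of inbred B73 maize, the last 1 mm of primary and seminal roots together, 3 days after germination. Seedlings were kept on wet paper at 28 C in constant dim light of about 500 lux and received no treatment. The 4 libraries are labelled as biological replicates of this single group, so the p-values below rest only on the spread between these 4 samples. Those of edgeR also draw on the spread of all genes fitted, not on that of 1 gene alone. Ribosomal RNA was depleted before strand-specific sequencing with molecular tags, and each library mixes cap, meristem and young tissue from tips of both root types.

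PCNA forms a ring that slides along DNA and holds the replicative polymerases and many repair and chromatin proteins at the fork. Ribonucleotide reductase turns ribonucleotides into deoxyribonucleotides and needs both a large subunit, with the active site and the allosteric sites, and a small subunit, with the iron centre and its radical. In rice, mutations in a large subunit gene (V3) and a small subunit gene (St1) give pale or striped leaves, and in Arabidopsis the small subunit gene TSO2 is needed for normal development. In dividing plant tissue, clamp and reductase genes are known as genes of late G1 and S phase.

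Levels are given in CPM, counts per 1e6 counts of a library. Library totals ran from 9168397 counts in replicate 2 to 14728175 in replicate 1. Both root cap marker genes were present, RCP1 at 201 ± 37.2 CPM and RCP2 at 162 ± 17.7 CPM (SD, n = 4), as were the root hair gene rth3 at 65.6 ± 3.09 CPM and the patterning gene SCR at 15.3 ± 2.13 CPM. Of 12 genes matched as photosynthesis genes, 10 did not pass the expression filter and 5 had no count, while Ppdk1, which also has a cytosolic product, stood at 60.0 ± 20.6 CPM. Of 14 genes matched as seed storage genes, 12 had no count (3 counts over the 4 libraries, the limit such a 0 allows, would be 0.0584 CPM), gz27 had 1 count, and zpu1, a starch debranching enzyme gene caught by its name, stood at 6.10 ± 0.763 CPM.

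The clamp genes were the more even pair. PCNA (GeneID 542425) had 249, 278, 277 and 287 CPM in replicates 1 to 4. The 3 higher libraries lay close together and replicate 1 lay below them. Its partner pcna2 (GeneID 542357) had 189, 196, 198 and 214 CPM in the same order, lowest again in replicate 1 and, in CPM, highest in replicate 4. The ranges of both genes did not overlap. Behind these values stood 2553 to 3905 counts of PCNA and 1800 to 2917.5 counts of pcna2 per library, so that the exact 95% binomial (Clopper-Pearson) interval of PCNA in replicate 1 ran from 241 to 257 CPM. These intervals, here and below, cover counting error only. The value of pcna2 in replicate 4 was the only one with a fraction among the 5 genes.

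The large subunit gene RNRL1 (GeneID 110017794) behaved otherwise across the libraries. It had 194, 144, 170 and 167 CPM in replicates 1 to 4, highest in replicate 1, where both clamp genes were lowest. Replicate 2, the shallowest library, was the lowest, with 1316 counts and an exact 95% interval of 136 to 152 CPM, which does not reach the value of any other library.

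Of the small subunit genes, RNRS1 (GeneID 100284475) was lowest in the same library as the clamp genes. It had 192, 213, 205 and 226 CPM in replicates 1 to 4, lowest in replicate 1 and, in CPM, highest in replicate 4. RNRS3 (GeneID 100192012) was the lowest of the 5, with 118, 95.7, 109 and 130 CPM in replicates 1 to 4. It was lowest in replicate 2, as was RNRL1, and highest in replicate 4. The library in which PCNA, pcna2 and RNRS1 were highest depended on the scaling. It was replicate 4 in CPM, but replicate 2 after division by edgeR's TMM factors, which adjust for composition (291 in replicate 2 and 274 in replicate 4 for PCNA), and as a ratio to the median gene of the library. The lowest library of each of the 5 genes, and the highest of RNRL1 and RNRS3, were the same on the 3 scales.

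**Figure D1:**
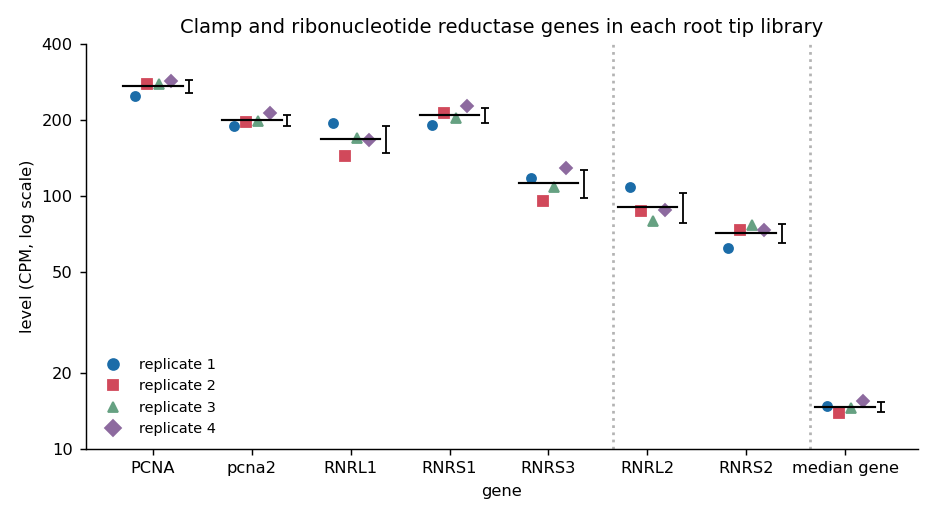
Level of each gene in CPM on a log scale, with 1 symbol per library, a line at the mean and an error bar of 1 SD to its right (n = 4). The 5 clamp and reductase genes stand on the left between 95.7 and 287 CPM, the other reductase genes RNRL2 and RNRS2 next to them, and the median expressed protein-coding gene on the right between 13.9 and 15.5 CPM.

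By mean level the order was PCNA at 273 ± 16.5 CPM, RNRS1 at 209 ± 14.6 CPM, pcna2 at 199 ± 10.6 CPM, RNRL1 at 169 ± 20.7 CPM and RNRS3 at 113 ± 14.3 CPM (SD, n = 4 each). The ranges of RNRS1 and pcna2 overlapped, and so did those of pcna2 and RNRL1. The ranges of PCNA and RNRS1 did not overlap, nor did those of RNRL1 and RNRS3. No transcript length was at hand, so every ratio between genes here compares reads rather than molecules, and a longer transcript gives more reads. The 5 genes together summed to 963 ± 42.8 CPM, of which the clamp pair made 472 ± 25.9 CPM and the reductase genes 491 ± 30.3 CPM.

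A reference table of names lists further reductase genes, RNRL2 for the large and RNRS2 for the small subunit, which allow each class to be seen whole as far as it is named. RNRL2 had 108, 86.9, 79.9 and 87.7 CPM in replicates 1 to 4 and RNRS2 had 62.2, 73.4, 77.0 and 73.3 CPM. RNRL2 was highest in replicate 1, as was RNRL1, while RNRS2 was lowest there, as was RNRS1. All 5 named reductase genes were thus read in every library, and both large subunit genes summed to 259 ± 30.6 CPM, against 393 ± 25.1 CPM for the 3 small subunit genes.

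The split between copies varied least for the clamp. PCNA took 57.8 ± 0.874% of the clamp counts (SD, n = 4), with 56.8, 58.6, 58.4 and 57.2% in replicates 1 to 4, and the exact 95% intervals of these shares overlapped, the lowest being 55.6 to 58.0% in replicate 1 and the highest 57.2 to 60.1% in replicate 2. RNRL1 took 65.0 ± 2.39% of the large subunit counts, between 62.3% in replicate 2 and 68.0% in replicate 3, where the intervals of 60.2 to 64.4% and 66.4 to 69.5% did not overlap. Among the small subunit genes RNRS1 took 53.1 ± 1.83%, RNRS3 28.7 ± 2.90% and RNRS2 the remaining 18.2% on average. The share of RNRS3 ran from 25.0% in replicate 2, with an interval of 23.6 to 26.5%, to 31.7% in replicate 1, with an interval of 30.4 to 32.9%. Reads shared between similar copies could shift these splits; no source used here says how such reads were assigned, and single levels of copies are uncertain to that extent.

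**Figure D2:**
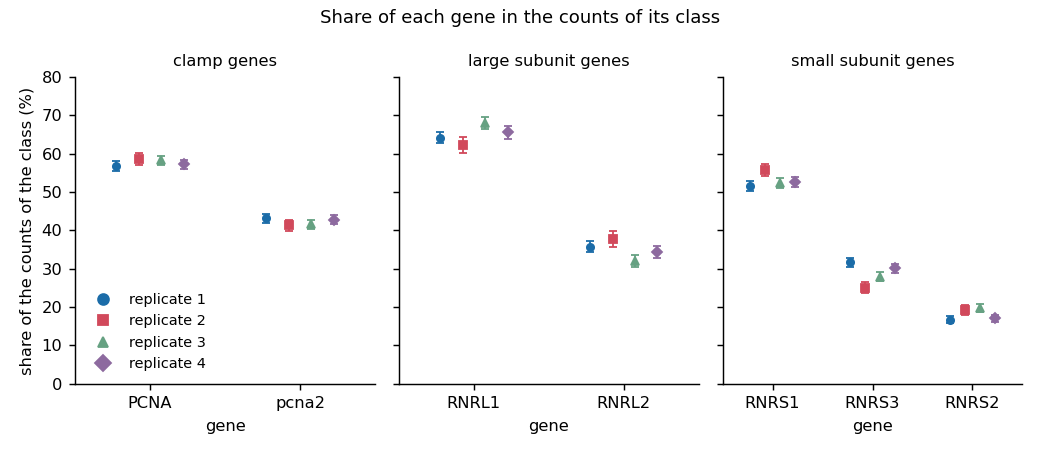
Share of each gene in the counts of its class, in percent, for each library, with exact 95% binomial intervals that cover counting error only. PCNA holds 56.8 to 58.6% of the clamp counts in the 4 libraries, RNRL1 62.3 to 68.0% of the large subunit counts, and RNRS3 25.0 to 31.7% of the small subunit counts.

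Ratios within a library do not depend on its total, and 13 such pairs or sums were compared by an exact two-sided sign-flip permutation test. With 4 libraries its smallest p is 0.13, so no pair could pass 0.05, and every pair with the same sign in all 4 libraries had p = 0.13 and a Benjamini-Hochberg adjusted p of 0.148 (exact permutation). PCNA exceeded pcna2 in 4 of 4 libraries, by a log2 ratio of 0.45 ± 0.05 or 1.37-fold, and the 4 ratios lay between 1.32-fold and 1.42-fold. PCNA exceeded RNRS1 in 4 of 4 by 0.38 ± 0.04. RNRS1 exceeded pcna2 in 4 of 4, but only by 1.01-fold to 1.09-fold, a mean log2 ratio of 0.07 ± 0.04. These ratios between PCNA, pcna2 and RNRS1 had the smallest SDs of the 13.

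The reductase ratios were wider. RNRS1 exceeded RNRS3 in 4 of 4 libraries, by 0.89 ± 0.19, from 1.63-fold in replicate 1 to 2.23-fold in replicate 2. RNRL1 exceeded RNRS3 in 4 of 4 by 0.58 ± 0.15. RNRL1 against RNRS1 gave log2 ratios of 0.02, -0.57, -0.27 and -0.44 in replicates 1 to 4, so RNRL1 was lower in 3 of 4 libraries and level with RNRS1 in replicate 1 (mean -0.32 ± 0.25, exact permutation p = 0.25, adjusted 0.25). Likewise pcna2 against RNRL1 was positive in 3 of 4, at 0.25 ± 0.21 (exact permutation p = 0.25, adjusted 0.25).

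Set against the sum of its small subunit partners RNRS1 and RNRS3, RNRL1 stood at a log2 ratio of -0.94 ± 0.20, or 0.522-fold. It was lower in 4 of 4 libraries, which adds nothing of its own. A single gene is set against a sum here, and RNRL1 was at most 1.01-fold of RNRS1 alone. With RNRL2 and RNRS2 added, the large subunit genes stood at 0.657-fold of the small subunit genes, a log2 ratio of -0.61 ± 0.21 with the value nearest to 0 in replicate 1, at -0.30. RNRL1 exceeded RNRL2 by 0.90 ± 0.15, RNRS1 exceeded RNRS2 by 1.55 ± 0.10 and RNRS3 exceeded RNRS2 by 0.66 ± 0.26, each in 4 of 4 libraries. The clamp pair summed to 2.81-fold the level of RNRL1, from 2.25-fold in replicate 1 to 3.31-fold in replicate 2.

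Seen as deviations from the mean log2 CPM of each gene, PCNA, pcna2, RNRS1 and RNRS2 were all lowest in replicate 1, at -0.13, -0.07, -0.12 and -0.20. RNRL1 and RNRL2 were highest there, at 0.21 and 0.26. The share of all expressed genes that were lowest or highest in replicate 1 was not determined. RNRS3 had 0.07 in replicate 1, -0.23 in replicate 2 and 0.21 in replicate 4. The median gene itself was highest in replicate 4, at 15.5 CPM, and lowest in replicate 2, at 13.9 CPM. The root cap markers differed in order, with RCP1 highest in replicate 4 at 253 CPM and RCP2 highest in replicate 2 at 183 CPM. The part of tissue make-up in these deviations was not tested, and in whole tips more cells of a kind and more RNA per cell cannot be told apart.

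**Figure D3:**
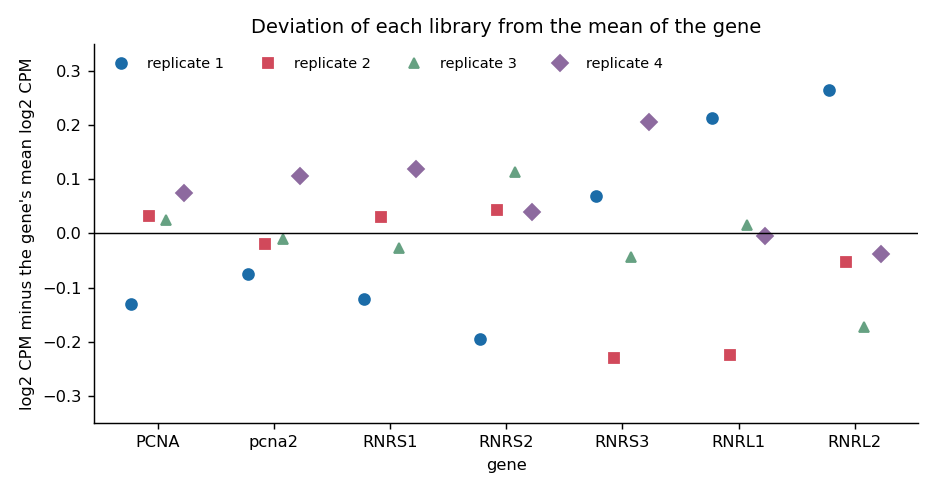
Log2 CPM of each library minus the mean log2 CPM of the same gene, with 1 symbol per library. Replicate 1 lies below the line for PCNA, pcna2, RNRS1 and RNRS2 (-0.07 to -0.20) and above it for RNRL1 and RNRL2 (0.21 and 0.26).

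The coefficient of variation over the 4 libraries was 6.06% for PCNA, 5.33% for pcna2, 6.97% for RNRS1, 12.3% for RNRL1 and 12.6% for RNRS3. Counting error, if each read were a molecule of its own, would give 1.72, 2.01, 1.97, 2.17 and 2.65% for the same genes. Genes with a mean CPM within 2-fold of each gene had a median coefficient of 10.5 to 10.6%. Of those, 13.9% had a lower coefficient than PCNA, 9.30% a lower one than pcna2, 21.3% a lower one than RNRS1, 62.1% a lower one than RNRL1 and 64.0% a lower one than RNRS3. A single library set much of the spread of the clamp genes, since without replicate 1 the coefficient of PCNA was 1.85% and without replicate 4 that of pcna2 was 2.40%. Without replicate 2, the shallowest library, RNRL1 had 8.47% and RNRS3 8.68%, and without replicate 3 they had 15.1 and 15.0%. On TMM-scaled CPM they had 11.0 and 9.06%. Whether they vary more than genes of like level thus depends on the libraries kept and, for RNRS3, on the scaling. The median of like genes was not redone for these settings.

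**Figure D4:**
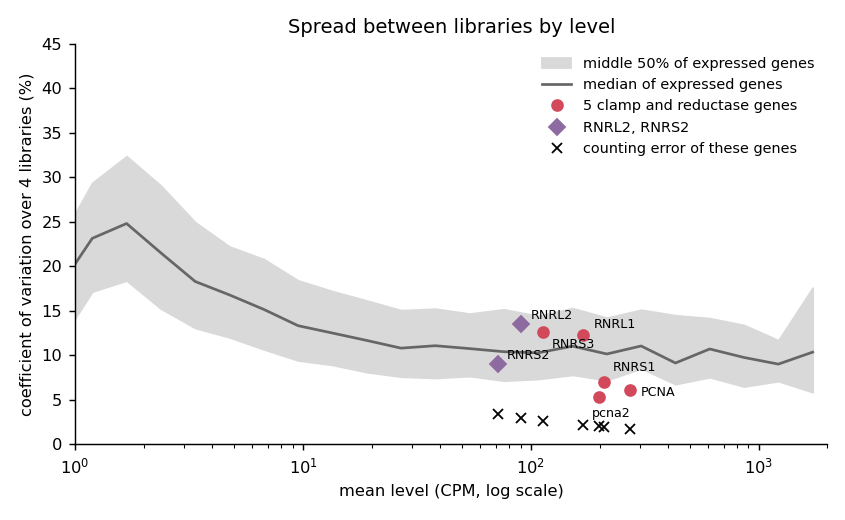
Coefficient of variation over the 4 libraries, in percent, against mean CPM on a log scale, with the median (line) and middle 50% (band) of expressed protein-coding genes in bins of level. PCNA, pcna2 and RNRS1 lie at 5.33 to 6.97%, under the line, RNRL1 and RNRS3 at 12.3 and 12.6%, above it, and the crosses mark the counting error of each gene.

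All 5 genes lay far up the distribution of expressed genes. Each was tested against a 2-fold difference from the median expressed protein-coding gene, which stood at 14.6 ± 0.678 CPM (n = 4), in an edgeR quasi-likelihood fit over 19603 genes. All 5 lay above at an adjusted p under the threshold of 0.05, where 26.6% of all genes tested lay above and 25.1% below. The choice of the 5 genes was not blind to earlier results of these data, so this count is a description. PCNA stood at 18.7-fold the median gene (log2 ratio 4.22 ± 0.11, edgeR adjusted p = 1.49e-18), RNRS1 at 14.3-fold and pcna2 at 13.6-fold. RNRL1 stood at 11.5-fold (3.53 ± 0.15, edgeR adjusted p = 3.18e-16) and RNRS3 at 7.70-fold (2.94 ± 0.12, edgeR adjusted p = 2.44e-14). The SDs are those over the 4 libraries. By mean CPM PCNA was gene 526 of the 19603, RNRS1 gene 714, pcna2 gene 765, RNRL1 gene 946 and RNRS3 gene 1461. The other reductase genes RNRL2 and RNRS2 also lay above, at 6.20-fold and 4.89-fold.

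Other genes of the same processes were found by name, which misses every gene without one. The names also matched 7 kinesin-related genes, which are not genes of these processes. Over the 32 genes found 29 were expressed, of which 11 lay above and 0 below (edgeR, adjusted over all genes). Over all genes tested 26.6% lay above and 25.1% below, while all 5 clamp and reductase genes lay above. The median log2 ratio was 3.77 for the 5 clamp and reductase genes, 0.99 for the expressed listed genes and 0.00 for all genes tested. The 7 kinesin-related genes, 2 of them above, are part of the listed counts and median, and 0.99 is the value of 1 of them. At an unadjusted p under 0.05 the edgeR count below was also 0, and DESeq2 and limma called 0 below as well. Of the 32, 2 had a higher mean CPM than RNRS3 and both were also higher than PCNA, namely ndpk1 and cycD2.

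The counts of single lists are to be read beside the 26.6% of all genes tested that lay above, and no list was tested against that share. Among genes of origins and the replicative helicase 2 of 7 lay above, MCM6 being the highest at 66.6 ± 7.30 CPM and the origin recognition gene orc3 the lowest at 19.5 ± 3.67 CPM. Of the 2 fork genes found, Top1, for the topoisomerase that relaxes DNA ahead of the fork, lay above at 46.5 ± 6.68 CPM, and FEN1, for the flap nuclease that binds the clamp when it trims Okazaki fragments, stood at 27.6 ± 3.44 CPM without passing. In nucleotide supply 1 of 3 lay above, the nucleoside diphosphate kinase gene ndpk1 at 1320 ± 129 CPM, which makes triphosphates from the diphosphates that the reductase delivers. The thymidine kinase gene tk1, of the salvage route to thymidine nucleotides, stood at 22.2 ± 2.84 CPM and the kinase gene adk1 was lowest at 17.3 ± 2.41 CPM.

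The list for G1/S control held 15 genes, of which 14 were expressed and 6 lay above, beside 26.6% of all genes tested. Its krp names matched 7 kinesin-related genes, which are motor proteins and not cell cycle inhibitors, and 2 of these 7 lay above. Of the other 8, 7 were expressed and 4 lay above. The highest was the D-type cyclin gene cycD2 at 416 ± 32.8 CPM and the lowest expressed gene was RBR2, for a retinoblastoma-related repressor of S-phase genes, at 7.18 ± 1.19 CPM. The DNA damage list had 5 genes, and 1 of the 3 expressed lay above, rad51a, for a strand exchange protein of recombination, at 36.3 ± 4.28 CPM. The mismatch repair homologue MSH1 (GeneID 732814) was the lowest expressed gene, at 7.58 ± 1.37 CPM. Another gene named msh1 (GeneID 100272790), at 0.0718 CPM, did not pass the filter. Nor did sog1226c, matched by the start of its name and without a count.

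**Figure D5:**
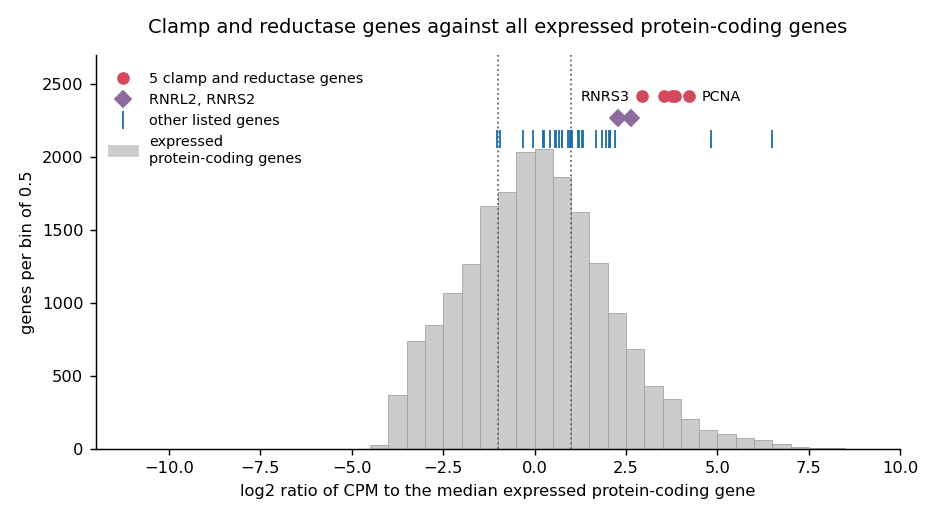
Number of expressed protein-coding genes per bin of 0.5 in the log2 ratio of CPM to the median gene (bars), with the 5 clamp and reductase genes, RNRL2 and RNRS2, and the other listed genes drawn above at arbitrary heights. The dotted lines mark a 2-fold difference, and the 5 genes lie between 2.94 and 4.22.

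Genes whose level over the 4 libraries was most like each of the 5 were sought among the 127 expressed genes that carry a symbol of their own, with the clamp and reductase genes left out, by the root mean square difference in log2 CPM. For pcna2 they were eIF4E1, which encodes a cap-binding factor of translation, at a difference of 0.16, and OBF1 at 0.17. In that pool the same pair was nearest to RNRS1, at 0.19 and 0.20. RNRL1 had AO2 and aos1 nearest, at 0.15 and 0.17, and RNRS3 had opr1 and gpm300, at 0.10 and 0.12. For PCNA they were pco097024a at 0.48 and eIF4E1 at 0.49.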

How the data were processed

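The deposited tables hold estimated counts per NCBI GeneID, one table per library, with no normalization by the authors. Per the submitters' processing notes the tools included HTSeq, UMI-tools, STAR 2.7.10b, SAMtools, deepTools and Trimmomatic (0.36 and 0.39). No source used here gives the genome build, annotation, strand setting or collapsing of molecular tags, and without collapsing several reads can come from 1 molecule. A further table with 5 columns that match no sample was not used.

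Names came from the RefSeq table of Zm-B73-REFERENCE-NAM-5.0, in which 48127 of 48174 GeneIDs were found. It gave no transcript lengths, proteins or other sequences, so levels were set side by side in CPM and no search for copies by sequence was made. Counts were rounded for tests, and 3062 genes had a fraction (tolerance 1e-06). Expressed genes were those passing filterByExpr (minimum count 10, total 15). A quasi-likelihood model with an intercept alone was run in edgeR 4.0.16 (R 4.3.3) with the median expressed protein-coding gene as offset, and the F statistic against the nearer 2-fold bound was formed from the deviances, with Benjamini-Hochberg adjustment. On counts simulated for this comparison from its own fitted dispersions, 40 of 40 genes at 4-fold, 40 of 40 at 3-fold and 0 of 40 at 1.5-fold were called (19603 genes fitted). At the bounds 1 of 40 at 2-fold and 2 of 40 at 0.5-fold were called, as were 3 of 7628 genes inside the 2-fold range. Counts that depart from those dispersions were not simulated. Ratios within libraries were tested with SciPy 1.17.1. Alternatives used DESeq2 1.42.0, limma 3.58.1 (pseudocount 0.5), other filters and left-out libraries. Named genes were all 5 genes, the highest and lowest expressed gene of each list, and the 2 nearest in level of each; tk1, orc4, cdc2, cycD1, krp1, RNRL2, RNRS2 and the neighbouring genes fall outside this rule, and tk1, orc4, cdc2, cycD1 and krp1 were chosen after their values were seen. The genes and lists were chosen with earlier results of these data known.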

Additional observations from a re-analysis of the deposited data

Results flagged for a closer look

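Of 56 values looked at over the 4 libraries, 3 had a library whose gap to the nearest other, as a share of the whole range, exceeded Dixon's 95% critical value, where chance flags about 1 group in 20. None concerned PCNA, pcna2, RNRL1, RNRS1 or RNRS3 or a ratio among them. The D-type cyclin gene cycD2 had 368 CPM in replicate 4, against 429 to 437 CPM in the other libraries. The origin recognition gene orc4 had 29.8 CPM in replicate 4, against 22.4 to 23.3 CPM. The cyclin-dependent kinase gene cdc2 had 64.4 CPM in replicate 3, against 58.6 to 59.5 CPM.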

How the results depend on the processing

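The 5 genes stayed above the median gene in all 54 alternative values, with log2 ratios from 2.92 to 5.07; pcna2 has a fraction and has no value with whole values only. Without the expression filter the calls above and below were 8369 and 9172, of a larger number of genes that is not given here. Without the 2-fold threshold they were 9012 and 8896 of 19603 genes, against 5211 and 4922 in the main fit. The listed genes above then numbered 23 and 25 in place of 11, and those below 2 and 3 in place of 0. Calls over all genes rose in these settings as well, and the listed counts were not tested against them. The log2 ratio of cycD1, at -0.05, turned to 0.80 without the filter and lay between -0.14 (without replicate 1) and 0.077 (without replicate 4) with 1 library left out; that of krp1, at -0.33, turned to 0.52 without the filter. The filter sets which gene is the median, and no other cause was tested. With 1 library left out, coefficients of variation ran from 1.85 to 7.35% for PCNA and from 2.40 to 6.48% for pcna2. They ran from 5.11 to 8.44% for RNRS1, from 8.47 to 15.1% for RNRL1 and from 8.68 to 15.3% for RNRS3. All 66 alternative mean ratios kept their sign. For pairs with the same sign in all 4 libraries, leaving out a library or adding a pseudocount could not change it. The pairs with mixed signs ran from -0.43 to -0.23 (RNRL1 against RNRS1) and from 0.18 to 0.34 (pcna2 against RNRL1) with 1 library left out. Correction for transcript length was not run, since no lengths were at hand. No paired analysis was possible because there is 1 group. Each of the 5 genes had at least 877 counts per library. RNRL1 and RNRS3 were lowest in replicate 2, the shallowest library, and the part of depth or library quality in this was not tested.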

Other observations

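In the reference order of genes, RNRL1 stands next to LOC100283347, with which it shares an older gene model identifier. That neighbour had 1.41 ± 0.347 CPM, and the gene on the other side, LOC100381687, had 107 ± 3.30 CPM (SD, n = 4). The neighbours of PCNA, LOC100281448 and LOC100216625 (bHLH168), had 1.41 ± 0.39 and 2.10 ± 0.530 CPM. One neighbour of pcna2, LOC100381886, had 67.0 ± 7.74 CPM. Those of RNRS3 had 3.02 ± 0.611 and 10.5 ± 1.73 CPM. No annotated span of a neighbour overlapped that of any of the 5 genes in that assembly.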
